A study of Mus musculus with 6 samples.

Results

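The Krueppel-like factor (KLF) genes are described here in mesenchymal stromal cells of mouse skeletal muscle and lymph nodes. The members were taken by symbol: the rows of the count table named Klf2, Klf3, Klf4, Klf5, Klf6, Klf7, Klf9, Klf10, Klf13 and Klf15, 10 of 52997 gene symbols. All 10 passed the filter on low counts and were tested. The stromal cells came from the hindlimb muscle or from the lymph nodes (inguinal, axillary, brachial and cervical) of C57BL/6 mice aged 8 weeks and kept at homeostasis, with no treatment named for either group. Each library held 1000 cells sorted through a double pass, and each tissue had 3 libraries. The sources used here do not name the markers that were sorted on. The count table numbers its muscle libraries 2, 3 and 4 and its lymph node libraries 1, 2 and 3. A number is shared by a pair of muscle sample titles, so separate animals cannot be assumed, and p-values measure only the spread between these libraries. Comparisons are muscle against lymph node, and a positive log2 fold change means higher in muscle. In bulk libraries, fewer cells expressing a gene and less RNA per cell cannot be told apart.

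Muscle library 4 stood apart from the rest. It held 415460 counts, against 1256276 to 1844874 in the other muscle libraries and 1851940 to 2397134 in the lymph node libraries. Over tested genes, its log2 CPM (counts scaled to library size) correlated with those of the other muscle libraries at r = 0.702 and 0.705, against 0.952 between muscle libraries 2 and 3. The 9 T cell markers summed to 435 CPM, the 7 B cell markers to 1874 CPM and the 4 erythroid markers to 586 CPM in it. In muscle libraries 2 and 3 the same sums were at most 13.2, 41.5 and 11.5 CPM, and Trac, a T cell receptor chain, was at 0 counts in both. In lymph node libraries they were at most 12.03, 260 and 10.9 CPM. The 10 stromal markers were all tested and summed to 65014 to 84064 CPM in muscle and 82443 to 102952 CPM in lymph node, with 0 called by edgeR, DESeq2 or limma-voom and 1 at an unadjusted p under 0.05. The 6 mural markers, of cells around vessels, summed to 93.4 to 129 CPM in muscle and 29.6 to 34.8 CPM in lymph node, with 1 of 2 tested markers higher in muscle. The 8 myeloid markers summed to 8.44 to 132 CPM in muscle, highest in library 4, and 17.7 to 20.9 CPM in lymph node. The 6 muscle fibre and satellite cell markers summed to 57.5, 69.9 and 8.06 CPM in muscle libraries 2, 3 and 4, and 7.99 to 10.9 CPM in lymph node. By edgeR, 1 of them was tested with all libraries and 0 were called. Without muscle library 4, 2 were tested and 2 were called higher in muscle, with a median log2 fold change of 4.61. The part of these cell types in the KLF differences was not tested. The KLF fold changes are given with all 6 libraries and without muscle library 4.

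KLF proteins are transcription factors that bind GC-rich and CACCC-type DNA through zinc fingers near their C terminus. Their other regions differ, so that some members mainly activate and others mainly repress transcription, and members can compete for the same sites. In mesenchymal cells they are known for their part in fat cell formation, in responses to injury and growth factors, and in hormone responses.

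Of the 10 genes, 2 were lower in muscle, Klf4 and Klf6, and 0 were higher (edgeR quasi-likelihood test, Benjamini-Hochberg adjusted p under 0.05). DESeq2 and limma-voom also called 0 higher and 2 lower, and 2 higher genes (Klf3 and Klf5) had an unadjusted edgeR p under 0.05. Of all 10823 genes tested, 4.32% were called, 1.46% higher and 2.86% lower in muscle. At an unadjusted p under 0.05 there were 5 KLF genes, beside 15.1% of all tested genes, and without muscle library 4 there were 7, beside 23.3%. The median log2 fold change of the 10 genes was -0.45, beside 0.02 for all tested genes. Without muscle library 4, 1 gene was higher (Klf3) and 4 were lower (Klf2, Klf4, Klf6 and Klf15), where 12.4% of 11246 tested genes were called, 4.79% higher and 7.58% lower. The median was then -0.30, beside 0.01 for all tested genes. In the 6 libraries, the values of 6 KLF genes did not overlap between tissues, as for 23.6% of all tested genes. These were 2 genes higher in muscle (9.93% of all tested) and 4 lower (13.7%). Without muscle library 4, 7 KLF genes did not overlap, as for 39.7% of all tested genes, with 2 higher (19.8%) and 5 lower (19.9%).

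Klf4, one of the reprogramming factors and in mouse preadipocytes an activator of Cebpb, had the larger fall of the called members. It stood at 130.3, 174 and 137 CPM in muscle libraries 2, 3 and 4, against 419, 447 and 506 CPM in lymph node libraries 1, 2 and 3. Every muscle library lay below every lymph node library, and muscle library 4 lay between the other muscle libraries. The means were 147 ± 23.8 CPM in muscle libraries, against 457 ± 44.5 CPM in lymph node libraries (SD, n = 3 libraries each), a 3.09-fold fall. The log2 fold change was -1.63 ± 0.19 (SE) with an adjusted p of 0.00177, and -1.60 ± 0.16 with an adjusted p of 1.13e-05 without muscle library 4. These values rest on 51 to 247 counts per muscle library and 733 to 1111 per lymph node library. The gene lies on the minus strand of chromosome 4, at 55527143 to 55532466 (GRCm38, GENCODE M21).

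Klf6, a factor induced by tissue injury that represses Dlk1 in mouse preadipocytes, was the other member to fall. It stood at 316, 449.5 and 317 CPM in muscle libraries 2, 3 and 4, against 927, 692 and 748 CPM in lymph node libraries 1, 2 and 3. The tissues did not overlap, although the highest muscle library and the lowest lymph node library were in proportion closer than for Klf4. The means were 361 ± 76.6 CPM in muscle libraries, against 789 ± 123 CPM in lymph node libraries (SD, n = 3 libraries each), a 2.18-fold fall. Its log2 fold change was -1.12 ± 0.21 (SE, adjusted p = 0.0174), and -1.05 ± 0.18 without muscle library 4 (adjusted p = 0.000929). Its adjusted p was 0.0872 when muscle library 2 was left out, so the call was lost. It was lost too when lymph node library 1, 2 or 3 was left out, with adjusted p of 0.102, 0.0808 and 0.0916. Klf6 lies on the plus strand of chromosome 13, at 5861482 to 5870394.

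**Figure D1:**
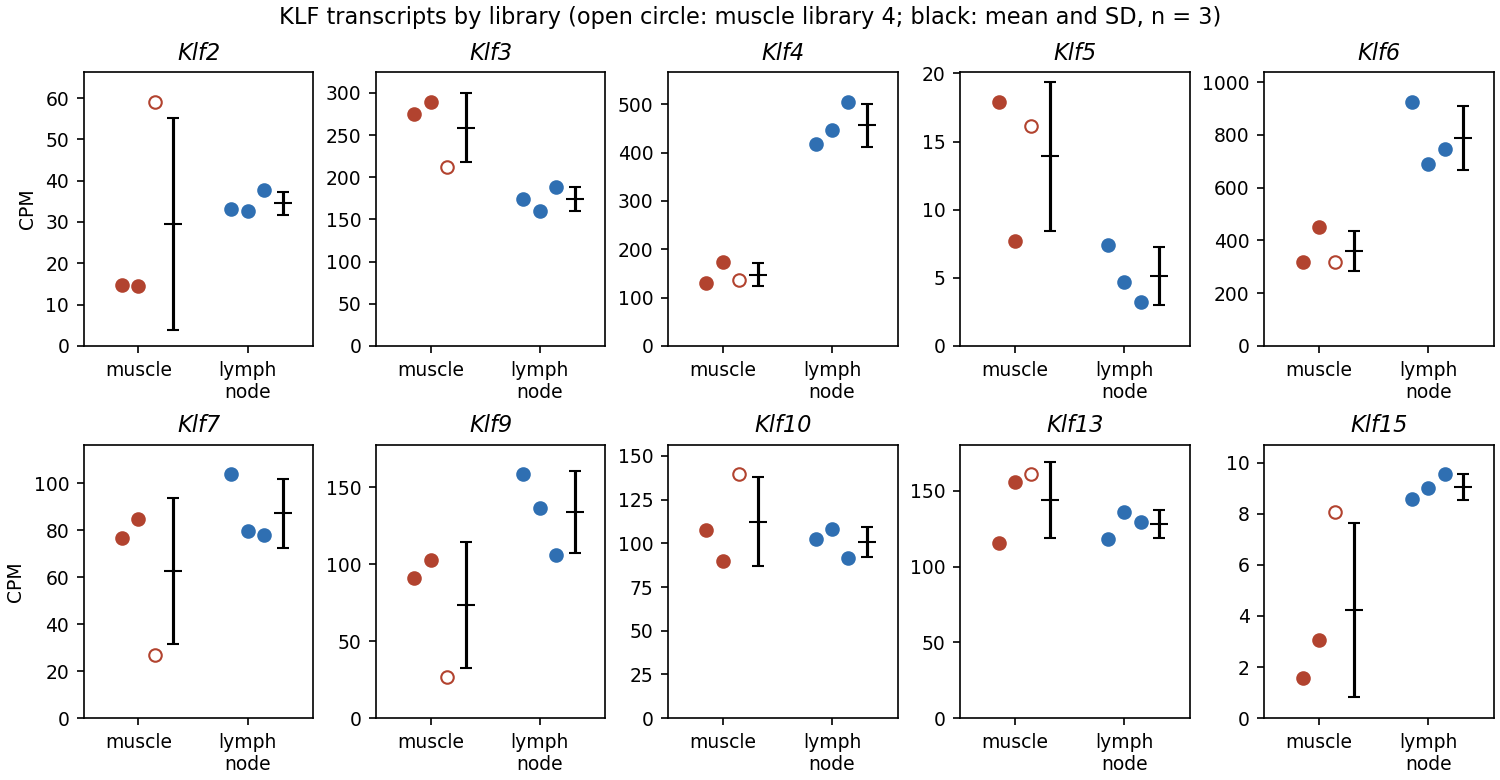
Scaled counts (CPM) of each KLF gene in every library, muscle in red on the left and lymph node in blue on the right, with the mean and SD (n = 3) in black and muscle library 4 as an open circle. Klf4, Klf6, Klf9 and Klf15 sit lower in all 3 muscle libraries, narrowly for Klf9 and Klf15. For Klf2, Klf7, Klf9 and Klf15 the open circle lies far from the other muscle libraries.

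Klf4 and Klf6 are also known as early response genes, whose transcripts appear soon after a stimulus or cell handling. All 13 immediate early genes listed were tested and fell in muscle, with and without muscle library 4, and their median log2 fold changes were -3.03 and -3.09. Their summed level was 2839 to 3422 CPM in muscle libraries and 20913 to 22590 CPM in lymph node libraries. Fos, a subunit of the AP-1 factor, averaged 424 ± 81.2 CPM in muscle libraries, against 5409 ± 415 CPM in lymph node libraries (SD, n = 3 libraries each), with a log2 fold change of -3.67 ± 0.22 (adjusted p = 7.23e-05). Fosb and Junb, other AP-1 subunits, had log2 fold changes of -5.06 and -3.03, and Atf3, a stress-induced factor, had -5.01. The falls of Klf4 and Klf6 were thus smaller on the log2 scale than the median of that list. Klf10, also first known as an early gene, was not called (log2 fold change 0.13, edgeR adjusted p = 0.853). The part of cell handling in the KLF differences was not tested.

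The upstream sequences of Klf4 and Klf6, the called members, and of Klf2 and Klf3, whose calls turned on muscle library 4, are shown to let their promoters be compared. They are from RefSeq (GRCm38.p6), read 5′ to 3′ on the strand of the gene, and end before the annotated gene. They cover chr4:55532476-55532725 (minus strand, Klf4), chr13:5861239-5861481 (plus, Klf6), chr8:72318812-72319032 (plus, Klf2) and chr5:64803271-64803387 (plus, Klf3). Capitals mark matches, on either strand, to the motifs described after them.
Klf4: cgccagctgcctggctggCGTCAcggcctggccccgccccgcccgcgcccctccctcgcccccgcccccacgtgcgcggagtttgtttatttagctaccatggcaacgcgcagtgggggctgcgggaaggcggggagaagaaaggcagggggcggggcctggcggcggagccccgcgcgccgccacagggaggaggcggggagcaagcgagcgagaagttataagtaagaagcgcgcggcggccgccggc
Klf6: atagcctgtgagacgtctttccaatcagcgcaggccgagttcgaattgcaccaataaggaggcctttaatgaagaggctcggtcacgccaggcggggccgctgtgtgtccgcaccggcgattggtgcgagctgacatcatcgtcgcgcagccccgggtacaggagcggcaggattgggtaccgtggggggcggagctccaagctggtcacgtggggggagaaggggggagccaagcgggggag
Klf2: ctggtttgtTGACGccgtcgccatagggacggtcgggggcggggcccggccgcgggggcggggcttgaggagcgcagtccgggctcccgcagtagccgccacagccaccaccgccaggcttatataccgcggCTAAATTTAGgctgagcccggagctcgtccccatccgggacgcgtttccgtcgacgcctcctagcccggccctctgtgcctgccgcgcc
Klf3: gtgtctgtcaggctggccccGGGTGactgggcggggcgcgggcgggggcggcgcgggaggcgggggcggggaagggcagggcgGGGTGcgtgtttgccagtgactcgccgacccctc
The 250 bases before the RefSeq start were searched on both strands in the 8 members with a RefSeq window and in all 32851 windows. Some searched bases lie inside the annotated gene and are not shown, and the Klf7 window lies wholly inside it. The letters CACCC, a KLF-type box, were in 6 of the 8 members and in 52.0% of all windows. The Klf2 match (-19 to -15) and the Klf3 matches at -120 to -116, -111 to -107 and -48 to -44 are among the bases not shown. TGACG, part of the cyclic AMP response element, was in 5 of the 8 and in 17.8% of all windows, with the Klf4 match at -232 to -228 and the Klf2 match at -241 to -237 from the start. The AP-1 letters TGANTCA were in 1 member, Klf9, within -89 to -80, where it overlaps a CACCC match, and in 6.75% of all windows. A MEF2 site was in Klf2 alone, at -118 to -109, and in 2.92% of all windows. The CArG box (1.47% of all windows) and the glucocorticoid response element (0.387%) matched in 0 of the 8, and the Klf6 window held none of the 6 motifs. The GC content of the 8 windows ran from 59.2% to 78.4%, with a median of 71.4%, beside a median of 52.4% over all windows. A match describes letters only and says nothing of binding.

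For Klf2 the result turned on muscle library 4. Klf2, on the plus strand of chromosome 8 at 72319033 to 72321656, is induced by laminar flow in endothelium, keeps T cells quiescent and represses Pparg in mouse preadipocytes. It stood at 14.8, 14.6 and 59.1 CPM in muscle libraries 2, 3 and 4, against 33.1, 32.6 and 37.8 CPM in lymph node libraries 1, 2 and 3. Muscle libraries 2 and 3 lay below all lymph node libraries and muscle library 4 lay above them all. The value in muscle library 4 came from 22 counts, with an exact 95% counting interval of 37.1 to 89.5 CPM, and the intervals in muscle libraries 2 and 3 were 9.81 to 21.3 and 8.79 to 22.8 CPM. Such intervals cover counting error only. With all libraries the log2 fold change was -0.52 ± 0.50 (SE, 95% interval -1.64 to 0.59, adjusted p = 0.711). Without muscle library 4 it was -1.24 ± 0.26 (-1.79 to -0.69, adjusted p = 0.00466), from means of 14.7 ± 0.119 CPM in muscle (SD, n = 2 libraries) and 34.5 ± 2.84 CPM in lymph node (SD, n = 3 libraries).

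The high Klf2 value thus fell in the library with the highest T cell, B cell and erythroid sums. Pecam1, a marker of endothelium and some blood cells, had 22 counts in muscle library 4, against 4 and 5 in muscle libraries 2 and 3 and 3 to 6 in lymph node libraries. The 8 endothelial markers summed to 342, 446 and 204 CPM in muscle libraries 2, 3 and 4, against 323 to 398 CPM in lymph node libraries, so that muscle library 4 had the lowest sum of all. Most of that sum was Tek, and the markers other than Tek summed to 79.1, 79.9 and 83.3 CPM in muscle libraries 2, 3 and 4, against 54.1 to 62.2 CPM in lymph node libraries. Pecam1 is among these, and its 22 counts in muscle library 4 equal 59.1 CPM, most of the 83.3 CPM there. The markers other than Tek and Pecam1 thus had a lower sum in muscle library 4 than in every other library. S1pr1, a KLF2 target through which lymphocytes leave tissues, was also high in muscle library 4, at 43.0 CPM (16 counts), against 1.05 and 1.54 CPM in muscle libraries 2 and 3 and 5.46 to 7.73 CPM in lymph node libraries. It was picked after its values were seen, from 7 listed targets of KLF2 or KLF13. Together those 7 summed to 925 CPM in muscle library 4, below the 1026 and 996 CPM in muscle libraries 2 and 3. The part of other cell types in the Klf2 value was not tested.

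**Figure D2:**
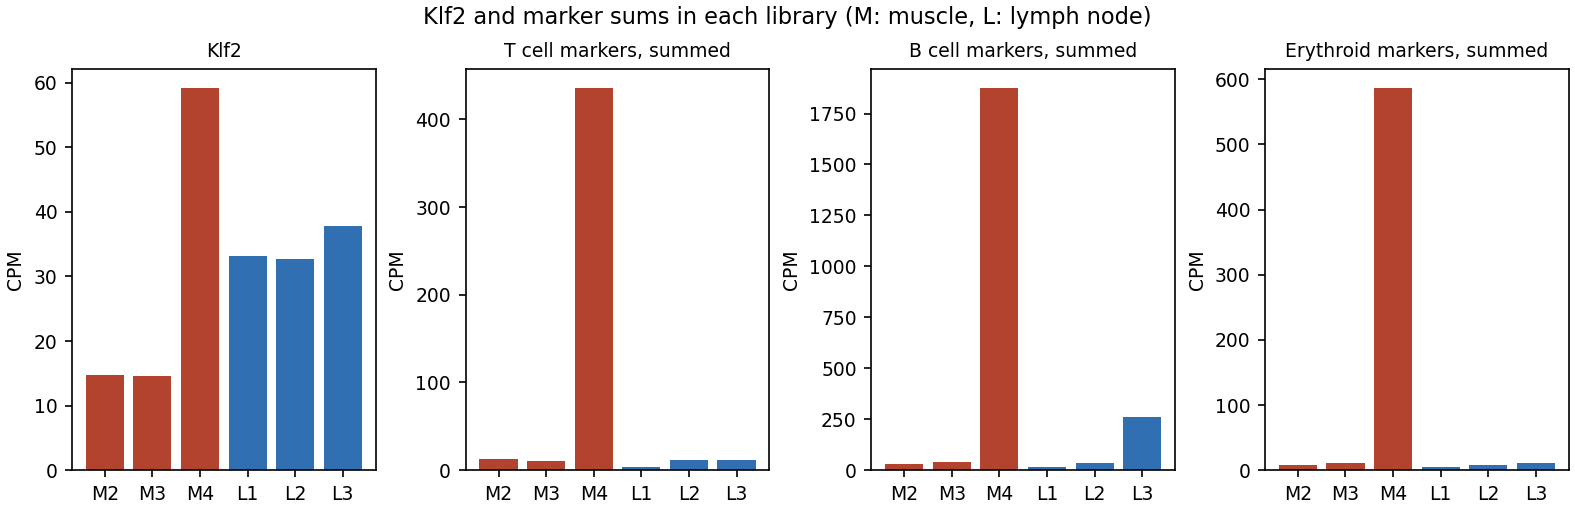
Klf2 and the summed T cell, B cell and erythroid markers (CPM, linear axes from 0) in each muscle (M2 to M4, red) and lymph node (L1 to L3, blue) library. Muscle library 4 has the highest bar in each panel, with 59.1 CPM for Klf2 and 1874 CPM for the B cell markers.

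Klf15, a glucocorticoid target that drives amino acid breakdown in muscle, was another member whose call turned on muscle library 4. It stood at 1.58, 3.07 and 8.06 CPM in muscle libraries 2, 3 and 4, against 8.57, 9.02 and 9.56 CPM in lymph node libraries 1, 2 and 3. All muscle libraries were below all lymph node libraries, but the gap at muscle library 4 was narrow. The muscle values rest on 3, 4 and 3 counts, and the counting interval in muscle library 4 was 1.66 to 23.6 CPM. Its log2 fold change was -1.52 ± 0.60 (SE, adjusted p = 0.263) with all libraries and -2.01 ± 0.56 (adjusted p = 0.0304) without muscle library 4. Klf15 lies on the plus strand of chromosome 6, at 90462576 to 90475238.

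Klf9, induced by glucocorticoid and thyroid hormone, was not called in either fit. It stood at 91.3, 103 and 26.9 CPM in muscle libraries 2, 3 and 4, against 159, 137 and 106 CPM in lymph node libraries 1, 2 and 3. The tissues did not overlap, at 103 against 106 CPM where they came closest, and muscle library 4 lay far below the rest on 10 counts. The log2 fold change was -0.77 ± 0.37 (SE, 95% interval -1.59 to 0.06, adjusted p = 0.378), and -0.47 ± 0.18 (-0.86 to -0.08, adjusted p = 0.124) without that library. Klf9 lies on the plus strand of chromosome 19, at 23141226 to 23168134.

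Klf3 and Klf5 were the members whose muscle libraries all lay above the lymph node libraries. Klf3, a repressor that works with CtBP proteins and restrains Cebpa in mouse cells, stood at 275, 289.7 and 212 CPM in muscle libraries 2, 3 and 4, against 175, 159 and 188 CPM in lymph node libraries 1, 2 and 3. The means were 259 ± 41.0 CPM in muscle libraries, against 174 ± 14.6 CPM in lymph node libraries (SD, n = 3 libraries each). The log2 fold change of 0.58 ± 0.19 (SE, adjusted p = 0.154) missed the threshold with all libraries. It passed without muscle library 4, at 0.69 ± 0.14 (adjusted p = 0.00373). The gene lies on the plus strand of chromosome 5, at 64803388 to 64832901. It overlaps the gene models Gm20033 on the opposite strand and C230096K16Rik on the same strand. With no strand setting stated in the sources used here, reads of the 3 cannot be told apart, and strand would not separate C230096K16Rik from Klf3.

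Klf5, an activator of Pparg in mouse preadipocytes, was a low-count gene. It stood at 17.9, 7.68 and 16.1 CPM in muscle libraries 2, 3 and 4, against 7.42, 4.73 and 3.19 CPM in lymph node libraries 1, 2 and 3. Muscle library 3 lay close to lymph node library 1, and their counting intervals of 3.68 to 14.1 and 3.95 to 12.7 CPM overlapped. Its log2 fold change was 1.43 ± 0.53 (SE, 95% interval 0.24 to 2.62, adjusted p = 0.224), and 1.39 ± 0.49 (adjusted p = 0.0933) without muscle library 4. Klf5 lies on the plus strand of chromosome 14, at 99298691 to 99315036.

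Klf7, Klf10 and Klf13 were not called in any fit run, and their intervals bound the size of a difference. Klf10, first known as a TGF-beta-inducible early gene, stood at 108, 89.9 and 139.8 CPM in muscle libraries 2, 3 and 4, against 102, 108 and 91.5 CPM in lymph node libraries 1, 2 and 3. Its log2 fold change was 0.13 ± 0.22 (SE, 95% interval -0.36 to 0.62, adjusted p = 0.853), and -0.03 ± 0.16 (-0.37 to 0.31, adjusted p = 0.951) without muscle library 4. Its sign turned in 3 of 17 alternatives (no filter, muscle library 4 left out, and muscle libraries 2 and 4 summed). Klf13, an activator of Ccl5 in T cells, stood at 116, 156 and 161 CPM in muscle libraries 2, 3 and 4, against 118, 136 and 129.8 CPM in lymph node libraries 1, 2 and 3. Its log2 fold change was 0.16 ± 0.20 (-0.29 to 0.61, adjusted p = 0.797), and 0.07 ± 0.16 (-0.28 to 0.41, adjusted p = 0.874) without muscle library 4, and its sign turned with no filter. The tissues overlapped for both genes. Klf10 lies on chromosome 15 (38291463 to 38300706, minus strand) and Klf13 on chromosome 7 (63886351 to 63938915, minus strand), where Klf13 overlaps opposite-strand gene models.

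Klf7, which restrains fat cell formation in culture, stood at 76.5, 84.5 and 26.9 CPM in muscle libraries 2, 3 and 4, against 104, 79.5 and 77.9 CPM in lymph node libraries 1, 2 and 3. Muscle libraries 2 and 3 lay within or next to the lymph node range, and muscle library 4 lay below it. For Klf7 the log2 fold change was -0.38 ± 0.33 (SE, 95% interval -1.13 to 0.37, adjusted p = 0.680), and -0.12 ± 0.18 (-0.50 to 0.26, adjusted p = 0.765) without muscle library 4. Of its 25-base words, 39.1% also occur in another gene, mostly the opposite-strand Gm26649, so the Klf7 values are uncertain. It lies on the minus strand of chromosome 1, at 64029447 to 64122282. For the other 9 members this share was at most 5.19%.

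**Figure D3:**
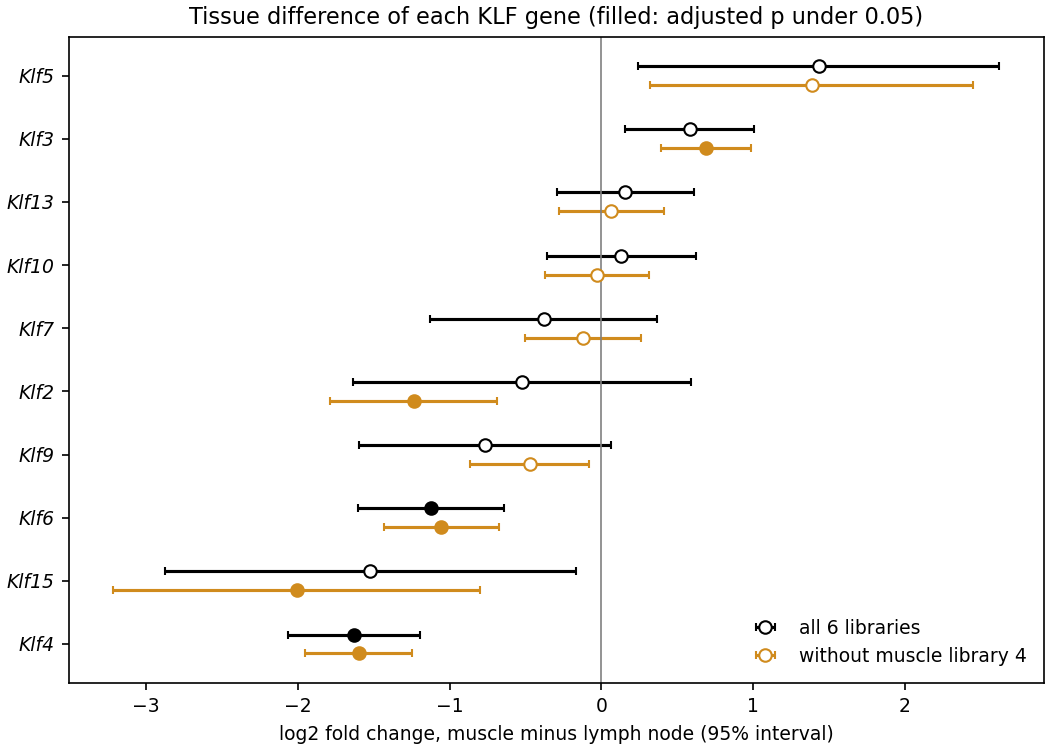
Log2 fold change of each KLF gene, muscle minus lymph node, with its 95% interval, from all 6 libraries (black) and without muscle library 4 (orange). Filled points have an adjusted p under 0.05. Klf4 and Klf6 are filled in both fits, and Klf2, Klf3 and Klf15 in the fit without muscle library 4.

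The order of levels was compared per length, as CPM per kilobase of merged exons (GENCODE M21). With all libraries and merged exons, Klf6 and Klf4 led in both tissues. In muscle Klf6 had 82.2 ± 17.4, Klf4 48.3 ± 7.80 and Klf10 26.9 ± 6.05 CPM per kilobase (SD, n = 3 libraries), and the libraries of these 3 genes did not overlap from one gene to the next. In lymph node Klf6 had 179.6 ± 28.0 and Klf4 149.9 ± 14.6, whose libraries overlapped, followed by Klf9 at 27.8 ± 5.49 and Klf10 at 24.1 ± 2.03 CPM per kilobase. Below Klf10, muscle ran in the order Klf3, Klf13, Klf2, Klf9, Klf7, Klf5 and Klf15, where each gene's libraries overlapped with those of the next. In lymph node the order went on with Klf2, Klf13, Klf3, Klf7, Klf15 and Klf5, and there Klf2 overlapped with Klf13 and Klf13 with Klf3. The lowest members were Klf15 at 1.52 ± 1.22 in muscle, against 3.24 ± 0.178 in lymph node, and Klf5 at 2.68 ± 1.05 in muscle, against 0.983 ± 0.412 CPM per kilobase in lymph node. The place of Klf3 depends on its exon length: its merged exons span 11243 bases and those of its basic transcripts 5386, and with the basic set it ranked 3 in both tissues, against 4 in muscle and 7 in lymph node with merged exons. With the basic set the muscle libraries of Klf3 and Klf4 overlapped, at means of 48.1 and 48.6 CPM per kilobase, and without muscle library 4 their order turned, at 52.4 for Klf3 and 50.3 for Klf4. With merged exons and without muscle library 4, the muscle order was Klf6 at 87.2, Klf4 at 49.97, Klf3 at 25.1, Klf10 at 23.6, Klf9 at 20.2, Klf13 at 18.0, Klf7 at 9.90, Klf2 at 7.95, Klf5 at 2.46 and Klf15 at 0.834 CPM per kilobase. In that order Klf3, Klf9 and Klf7 ranked higher, and Klf2, Klf10 and Klf13 lower, than with all libraries.

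**Figure D4:**
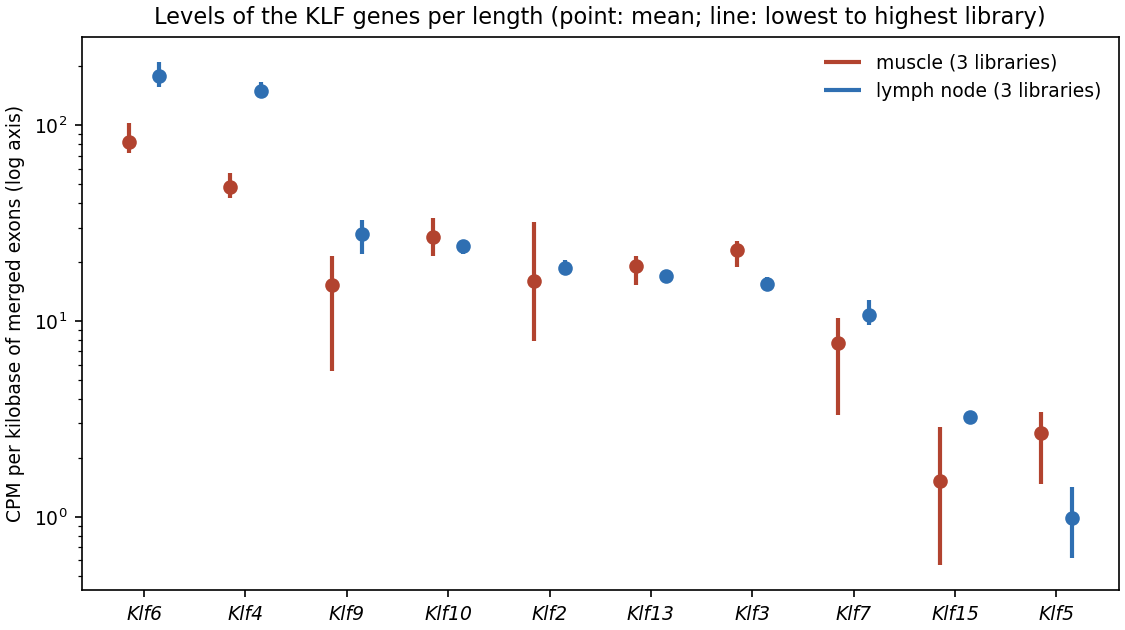
Level of each KLF gene as CPM per kilobase of merged exons (log axis), muscle in red left of lymph node in blue. Points are means and lines run from the lowest to the highest of 3 libraries. Klf6 and Klf4 lie above the other members in lymph node, at 179.6 and 149.9, while in muscle they lie at 82.2 and 48.3 CPM per kilobase.

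Together the 10 genes summed to 1147, 1372 and 1105 CPM in muscle libraries 2, 3 and 4, against 2052, 1805 and 1898 CPM in lymph node libraries 1, 2 and 3. Klf3 made up 24.0, 21.1 and 19.2% of this sum in muscle libraries 2, 3 and 4, against 8.51, 8.83 and 9.93% in lymph node libraries 1, 2 and 3. Klf4 made up 11.4, 12.7 and 12.4% in the muscle libraries, against 20.4, 24.8 and 26.7% in the lymph node libraries. Klf6 made up 27.6, 32.8 and 28.7% in the muscle libraries, against 45.2, 38.3 and 39.4% in the lymph node libraries. For these 3 genes the tissues did not overlap, with or without muscle library 4. The same held for Klf5, Klf10 and Klf13, whose shares were all higher in muscle. Klf10 made up 9.38, 6.55 and 12.7% in the muscle libraries, against 4.98, 6.00 and 4.82% in the lymph node libraries. For Klf13 the shares were 10.1, 11.4 and 14.6%, against 5.76, 7.55 and 6.84%. Neither was called by its CPM. Shares of a sum are tied, so a smaller share of some genes raises those of others. Ratios within a library need no scaling between libraries. The ratio of Klf4 to Klf3 counts was 0.474, 0.602 and 0.646 in muscle libraries 2, 3 and 4, against 2.40, 2.80 and 2.68 in lymph node libraries 1, 2 and 3. The ratio of Klf6 to Klf3 counts was 1.15, 1.55 and 1.49 in muscle libraries, against 5.30, 4.34 and 3.97 in lymph node libraries. Muscle library 4 lay close to the other muscle libraries in both ratios. It lay far from them in others, with 8.82, 11.9 and 2.32 Klf4 counts per Klf2 count in muscle libraries 2, 3 and 4, against 12.6, 13.7 and 13.4 in lymph node libraries 1, 2 and 3. Likewise the ratio of Klf9 to Klf13 counts was 0.79, 0.66 and 0.167 in muscle libraries, against 1.34, 1.00 and 0.818 in lymph node libraries. These pairs were chosen after their values were seen and were not tested.

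**Figure D5:**
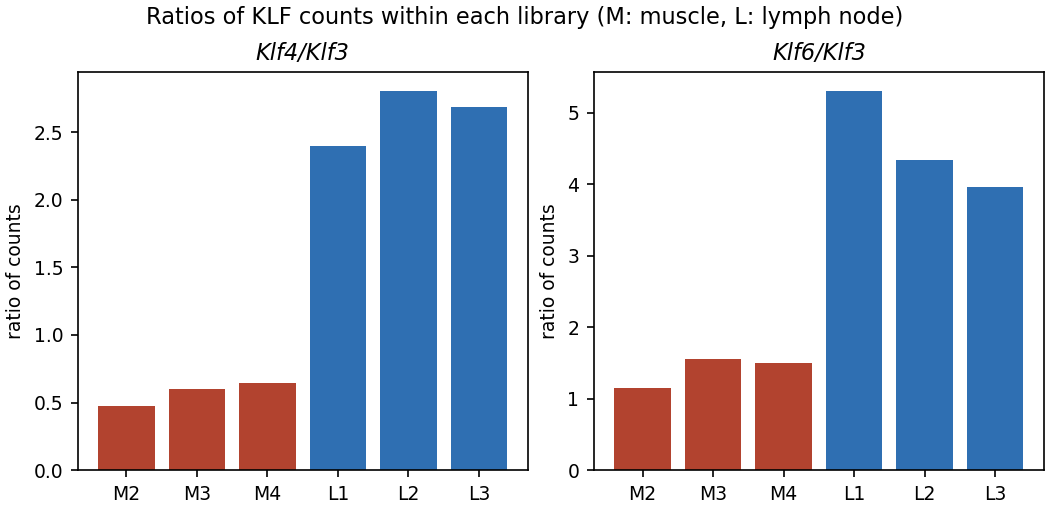
Ratio of Klf4 to Klf3 counts (left) and of Klf6 to Klf3 counts (right) within each muscle (M2 to M4, red) and lymph node (L1 to L3, blue) library. Muscle libraries lie at 0.474 to 0.646 and 1.15 to 1.55, below lymph node libraries at 2.40 to 2.80 and 3.97 to 5.30.

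Among the 16 other KLF and SP genes, which share the same zinc finger type, 6 were tested and 10 were under the filter on low counts, 1 was higher in muscle and 0 were lower (0 lower also by DESeq2, limma-voom and unadjusted p), with a median log2 fold change of -0.06. Its sign turned without muscle library 4, to a median of 0.15, with 1 of 6 tested genes positive in the fit of all libraries and 6 of 7 without that library. The called gene was Klf12, a repressor that works with CtBP proteins. It stood at 23.7, 38.4 and 43.0 CPM in muscle libraries 2, 3 and 4, against 6.85, 9.88 and 14.6 CPM in lymph node libraries 1, 2 and 3. Its log2 fold change was 1.67 ± 0.40 (SE, adjusted p = 0.0483), and 1.52 ± 0.34 (adjusted p = 0.0084) without muscle library 4. The call was lost in 6 of 16 alternatives, with an adjusted p of 0.0658 or 0.192 when muscle library 2 or 3 was left out, and of 0.124 when both were summed. Leaving out lymph node library 1, 2 or 3 gave an adjusted p of 0.202, 0.247 and 0.100. The widely expressed activators Sp1 (78.3 ± 19.2 CPM in muscle libraries, 86.6 ± 8.09 CPM in lymph node libraries) and Sp3 (99.0 ± 51.7 CPM in muscle libraries, 118 ± 6.50 CPM in lymph node libraries) were not called (adjusted p = 0.896 and 0.873).

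Genes upstream of or next to the KLF factors were followed as lists. The MEK5-ERK5-MEF2 route, which induces Klf2 and Klf4 in endothelium, had 7 of 8 genes tested and 0 called by edgeR, DESeq2 or limma-voom, with 1 at an unadjusted p under 0.05 and a median log2 fold change of 0.35 (0.11 without muscle library 4). The gene at an unadjusted p under 0.05 was Mef2a, a transcription factor of the route, at 96.5 ± 3.04 CPM in muscle libraries, against 67.4 ± 11.9 CPM in lymph node libraries (adjusted p = 0.275). Of 11 co-regulators and ubiquitin ligases of KLF proteins, 10 were tested and 0 called by the same tools, with 0 at an unadjusted p under 0.05 and a median of 0.27 (0.25 without muscle library 4). Without muscle library 4, Wwp1, a ligase that marks KLF2 and KLF5 for degradation, was higher in muscle (log2 fold change 0.69, adjusted p = 0.0416), against an adjusted p of 0.433 with all libraries.

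The adipogenic genes linked to KLF factors had the lowest median of these lists. Of 9 genes 5 were tested, 0 were higher by edgeR, DESeq2, limma-voom or unadjusted p, and 3 were lower by edgeR and limma-voom, with 4 lower by DESeq2 and 4 at an unadjusted edgeR p under 0.05. The median log2 fold change was -3.59 (-3.46 without muscle library 4). In both fits this median was the value of Egr2, which is in the immediate early list too. Pparg, the master regulator of fat cell formation, had 2, 2 and 0 counts in muscle libraries 2, 3 and 4, against 37, 71 and 41 in lymph node libraries 1, 2 and 3 (log2 fold change -4.31 ± 0.58, adjusted p = 0.00341). Fabp4, a fatty acid carrier and PPARG target, averaged 2.66 ± 2.37 CPM in muscle libraries, against 28.2 ± 3.93 CPM in lymph node libraries (log2 fold change -3.94 ± 0.53, adjusted p = 0.00359). Egr2, which is also an immediate early gene, averaged 8.33 ± 5.12 CPM in muscle libraries, against 116 ± 25.4 CPM in lymph node libraries (log2 fold change -3.59 ± 0.38, adjusted p = 0.00114), and its log2 fold change was -4.42 when muscle library 2 was left out. Cebpd, an early adipogenic factor, had an adjusted p of 0.106 with all libraries and was lower without muscle library 4 (log2 fold change -1.58, adjusted p = 0.00851). Cebpa, Cebpb and Dlk1, known targets of Klf3, Klf4 and Klf6, had at most 7 counts in any library and were not tested. Pparg and Fabp4 are also expressed by some endothelial cells and macrophages, and their part here was not tested.

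The glucocorticoid list held 8 genes, all tested, which were induced genes and the receptor gene Nr3c1. Of these, 0 were higher in muscle by edgeR, DESeq2, limma-voom or unadjusted p. Lower in muscle were 2 by edgeR and limma-voom, 3 by DESeq2 and 3 at an unadjusted edgeR p under 0.05. The median log2 fold change was -0.31 (-0.65 without muscle library 4). Dusp1, a phosphatase that is also an immediate early gene, averaged 537 ± 34.9 CPM in muscle libraries, against 2463 ± 341 CPM in lymph node libraries (log2 fold change -2.20 ± 0.19, adjusted p = 0.000446). Sgk1, a kinase, averaged 85.8 ± 17.2 CPM in muscle libraries, against 187 ± 2.62 CPM in lymph node libraries (log2 fold change -1.16 ± 0.20, adjusted p = 0.0116), but lost its call in 7 of 17 alternatives: leaving out any 1 library other than muscle library 4, summing muscle libraries 2 and 3, and thinning (adjusted p up to 0.092). When muscle library 4 was left out, Fkbp5, a chaperone of the receptor (adjusted p = 0.00133, 0.369 with all libraries), and Mt2, a metallothionein (0.0144 and 0.0683), were lower too. The receptor gene Nr3c1 was not called, at 282 ± 44.2 CPM in muscle libraries, against 232 ± 17.4 CPM in lymph node libraries (adjusted p = 0.545).

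Of 10 TGF-beta early targets, set beside Klf10, 8 were tested, 1 was higher and 2 were lower by edgeR, DESeq2 and limma-voom, with a median log2 fold change of -0.09 (-0.29 without muscle library 4). Ctgf, a matricellular protein, was higher, at 303 ± 117 CPM in muscle libraries, against 47.0 ± 14.0 CPM in lymph node libraries (log2 fold change 2.67 ± 0.33, adjusted p = 0.00211). Id3, an inhibitor of helix-loop-helix factors, was lower, at 123 ± 34.1 CPM in muscle libraries, against 357 ± 31.4 CPM in lymph node libraries (log2 fold change -1.51 ± 0.22, adjusted p = 0.00549). Id3 lost its call when lymph node library 2 was left out (adjusted p = 0.0577). In the fit without muscle library 4, Ski, a repressor of SMAD factors, was higher (adjusted p = 0.0344, 0.241 with all libraries) and Id2 was lower (0.0329 and 0.384). Of 7 known targets of KLF2 or KLF13, 3 were tested with 0 called by edgeR, 1 higher at an unadjusted p under 0.05 and 1 higher by each of DESeq2 and limma-voom, with a median of 0.56 (0.35 without muscle library 4). Without muscle library 4, Cd55, a complement regulator, was higher in muscle (log2 fold change 0.81, adjusted p = 0.00301), against an adjusted p of 0.0912 with all libraries.

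The genes whose profiles lay nearest to the called members were found by Euclidean distance between centred log2 CPM over the 6 libraries. For Klf4 they were Neat1, a nuclear noncoding RNA, at a distance of 0.25, then Ephx2, an epoxide hydrolase, at 0.38 and Ifi207, an interferon-inducible gene, at 0.40. Neat1 averaged 816 CPM in muscle libraries, against 2436 CPM in lymph node libraries, and fell by 1.58 on the log2 scale (adjusted p = 0.00237). For Klf6 they were Spaar, which encodes a small polypeptide, at 0.28, Cbs, a transsulfuration enzyme, at 0.28, and Glul, glutamine synthetase, at 0.30. Glul averaged 82.5 CPM in muscle libraries, against 197.5 CPM in lymph node libraries, and fell by 1.26 on the log2 scale (adjusted p = 0.00889). Ifi207 belongs to a family of near copies, so its reads may be split among them. Spaar, Cbs and Ephx2 averaged at most 15.3 CPM in either tissue and were not called. Every neighbour was picked for lying near Klf4 or Klf6 over these same libraries. Falls of similar size therefore follow from the choice and are no separate result. Both Ifi207 and Glul lost their call when muscle library 2 or lymph node library 3 was left out, Ifi207 also without lymph node library 2 and Glul also without lymph node library 1 (adjusted p up to 0.0772 and 0.0724).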

How the data were processed

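Polyadenylated RNA of sorted mouse stromal cells was copied from an oligo(dT) primer, amplified, tagged with a transposase and read as paired reads of 25 bases, per the labels' protocols. The authors deposited whole-number counts per gene symbol for 6 libraries, without normalization. The submitters' processing notes name STAR 2.5.4, featureCounts and mm10. The sources used here state no annotation release, strand setting or treatment of multiply aligned reads. No molecular identifiers are described, so PCR copies may be counted. Lymph node columns match sample titles by name, and muscle columns were used as 3 muscle replicates.

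From these counts, genes were filtered with filterByExpr, scaled by TMM and tested over tissue in edgeR 4.0.16 (R 4.3.3), two-sided, with Benjamini-Hochberg adjustment over all genes tested. CPM uses TMM library sizes, and the SE is the size of the log2 fold change over the square root of F. DESeq2 1.42.0, limma-voom (limma 3.58.1), other scalings and filters, summed muscle libraries, thinning to 415460 counts and leaving out each library were alternatives. The procedure was tested on simulated data, where libraries differed in depth but none held a deviating profile like that of muscle library 4. That test thus cannot show how the procedure fares with such a library. GENCODE M21 held 49365 of 52997 symbols. Named genes were the 10 members, called or well-expressed KLF and SP genes, up to 4 called genes per list by smallest p, and 3 nearest profiles per called member. Genes named for a call made only without muscle library 4, for an unadjusted p or for their counts in that library were added after their values were seen. The members and lists were chosen with earlier results of these data known. Of the genes this rule takes, 1 is not reported here, although the counts of its list include it.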

Additional observations from a re-analysis of the deposited data

How the results depend on the processing

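Klf4 was called lower in muscle in all 17 alternatives (log2 fold change -1.81 to -1.53, adjusted p at most 0.0222). Klf6 was called in 13 of 17, Klf3 in 3, Klf2 in 2 and Klf15 in 1 of the 15 that could test it, and Klf5, Klf7, Klf9, Klf10 and Klf13 in none. No called value changed sign. Leaving out 1 library gave 1 to 5 KLF genes called, 1 to 4 lower and 0 to 1 higher in muscle, against 2, 2 and 0 with all libraries. The 5 came without muscle library 4, whose absence also moved Klf2 over 1.5 times. Summing muscle libraries 2 and 4 gave 4 KLF genes called (1 higher), and summing 3 and 4 gave 3 (1 higher).

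Over all genes, 468 were called, against 142 to 1391 on leaving out 1 library (the left-out library and its count being muscle 2, 239; muscle 3, 248; muscle 4, 1391; lymph node 1, 199; lymph node 2, 142; lymph node 3, 160), 945 with no filter, and 222, 1435 and 1266 on summing muscle libraries 2 and 3, 2 and 4, and 3 and 4. Egr2 moved over 1.5 times without muscle library 2 and on thinning, to a log2 fold change as low as -4.47. The causes of these shifts were not tested. No paired analysis was possible because the muscle columns carry numbers that do not match their sample titles. Low counts limit Klf5 (6 to 34 per library) and Klf15 (3 to 4 per muscle library and 15 to 21 per lymph node library). The stricter filter and thinning could not test these genes.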
